A study of Mus musculus with 8 samples.

Results

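Hypertrophic chondrocytes of the mouse femur were taken as the cells that combined a cartilage matrix signature with the transcript of type X collagen, Col10a1. A cell belonged to them when Acan, Hapln1, Matn3 and Col10a1 together reached 40 of every 10,000 of its UMIs (unique molecular identifiers, the tags by which captured transcripts are counted) and Col10a1 alone reached 10 of every 10,000. By this rule 7271 of 45328 cells that passed the quality filters were hypertrophic chondrocytes, 349 in Control-1, 135 in Control-2, 3356 in Fracture-1 and 3431 in Fracture-2. The 8980 cells that reached the cartilage score with less Col10a1 are called other chondrocytes below, and both kinds together are called chondrocyte-score cells. All animals were 12-week-old C57BL/6 females. In the Fracture group the left leg had been broken by bending at 10 weeks of age under ketamine and xylazine, stabilised with an intramedullary nail, treated with the analgesic carprofen and collected on day 14, whereas the Control group was unfractured and no sham operation is given for it. Bone stromal cells were depleted of blood lineages with antibodies, and the sample titles give each group 2 numbered preparations with 2 libraries each, which were read here as libraries of 1 cell suspension and summed. The labels do not state how many animals entered a preparation, so p-values measure the spread between preparations. A fit that left out 1 preparation kept only 1 in that group. Its p-values and calls do not measure the spread within that group.

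Chondrocytes enlarge as they mature, stop dividing and secrete type X collagen in the growth plate and in the soft callus of a healing fracture. Prehypertrophic and early hypertrophic cells secrete Indian hedgehog (Ihh) and carry the parathyroid hormone receptor Pth1r, which together set the pace of maturation, and late hypertrophic cells mineralise their matrix, release the collagenase Mmp13 and the vessel growth factor Vegfa, and are finally replaced by bone. Some of them lie next to the blood vessels that invade the cartilage.

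The libraries held 56543151 to 89126291 UMIs each, and the hypertrophic chondrocytes together 6485621, 2949307, 45910193 and 52079377 UMIs in Control-1, Control-2, Fracture-1 and Fracture-2. Their median depth per cell was 19110.0, 23744, 13111 and 14509 UMIs in the same order, so that Control cells were fewer and deeper. Libraries of a preparation were close to each other, with Pearson's r of 0.976 to 0.998 over log2 levels of genes, Control-1 and Control-2 gave an r of 0.980, and pairs of a Control and a Fracture preparation gave 0.885 to 0.900. At most 2 barcodes of these cells were shared by libraries of a preparation and at most 3 by libraries of different preparations. In both libraries of Control-1 all 290 genes whose symbol begins with U were listed without a UMI, while they held 1.26% to 1.46% of UMIs in the other preparations. These genes, among them Ucma, were not analysed here.

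The cells carried the transcripts that define their name. Col10a1 and the score chose the cells, so that every comparison with other chondrocytes is given as a description, in CPM (UMI counts scaled to a common library total, without further correction) of the summed cells of each preparation. The median Col10a1 level per cell was 212, 274, 224 and 217 per 10,000 UMIs in Control-1, Control-2, Fracture-1 and Fracture-2. At the Col10a1 limit 4, 3, 78 and 74 cells lay just inside, between 10 and 12 per 10,000, and 10, 0, 143 and 119 chondrocyte-score cells lay just outside, between 8 and 10. Pla2g10, a secreted phospholipase, was at 63.7, 65.1, 27.9 and 27.0 CPM in hypertrophic chondrocytes of the same 4 preparations and at 0.237 to 0.315 CPM in other chondrocytes. Ihh was 6.52 to 6.95 times higher than in other chondrocytes within each preparation, and Loxl4, a lysyl oxidase that cross-links collagen, 6.78 to 13.2 times higher. All 3 of these markers were higher in hypertrophic than in other chondrocytes of every preparation.

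Beyond the markers, Aldh1a3, which makes retinoic acid, stood out with levels 16.8 to 72.2 times those of other chondrocytes, followed by Mmp13 at 13.2 to 77.3 times, the prostaglandin-degrading enzyme Hpgd at 11.6 to 20.3 times and the homeobox gene Irx5 at 11.2 to 22.7 times. Phex, an endopeptidase of phosphate balance, was 7.92 to 19.9 times higher and the Wnt effector Tcf7l2 7.31 to 13.3 times. Among the 12 lowest genes, Top2a, a topoisomerase, and Mki67 are known from dividing cells. Top2a stood at 0.0255 to 0.118 times and Mki67 at 0.0433 to 0.153 times its level in other chondrocytes, and the hedgehog inhibitor Hhip and the Wnt genes Lef1 and Notum were among these 12 too. Not every gene linked to the lineage separated the cells. Pth1r was 2.14 to 2.32 times higher, the channel Panx3 1.19 to 1.57 times and Runx2, the main transcription factor of hypertrophy, 1.52 to 1.75 times, while Sp7 differed by 1.02 to 1.10 times and Col2a1 by 0.923 to 1.04 times. Genes of every list are summarised below, and their values come from the same 4 sums.

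The cells were not uniform along Col10a1. Over 5 bands that began at 10, 20, 40, 80 and 160 per 10,000, the top band held 197, 87, 1998 and 2003 cells, more than any other band of its preparation. Ihh stood at 1.16 to 2.58 per 10,000 UMIs in the lowest band over the 4 preparations and at 2.89 to 5.45 in the top band. Vegfa went from 0.145 to 0.968 in the lowest band to 1.39 to 2.77 in the top band, and Loxl4 from 0.598 to 1.66 to 3.70 to 4.95. In each preparation these 3 genes were higher in the top band than in the lowest. The lowest band held only 25, 7, 282 and 274 cells, with 16 Ihh, 2 Vegfa and 23 Loxl4 UMIs in Control-2. Pla2g10 was nearly restricted to the top band, with 1.10, 1.02, 0.436 and 0.430 per 10,000 there and at most 0.118 in any band below. Pth1r and Alpl, the phosphatase of mineralisation, behaved otherwise, since both stepped up at the limit of 10 and then stayed level. Alpl stood at 5.50 to 6.96 per 10,000 in other chondrocytes, at 15.6 to 21.9 in the lowest band and at 18.1 to 23.4 in the top band. Lect1, an inhibitor of vessel growth, went down from 28.5 to 39.0 in the lowest band to 11.9 to 20.8 in the top band, while Matn1, a cartilage matrilin, went up in every preparation, from 1.25 to 3.18 to 1.93 to 7.37. The endoplasmic reticulum chaperone Hspa5 was at 8.37 to 10.6 in the lowest band and 3.72 to 4.22 in the top band of all preparations. Bands are cut from the gene that chose the cells and share its totals, so no test was made.

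**Figure D1:**
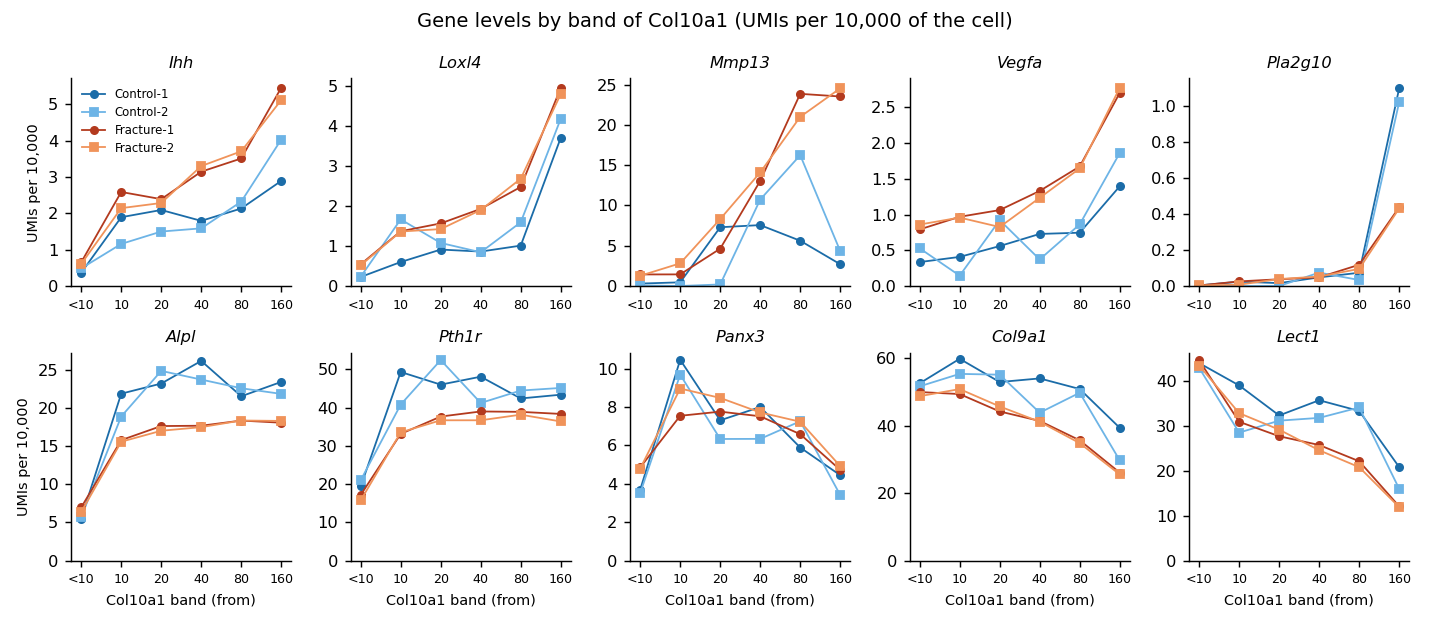
Levels of selected genes (UMIs per 10,000, vertical axis) in chondrocyte-score cells grouped by Col10a1 level per 10,000 UMIs (horizontal axis, first group below 10), with 1 line for each of the 4 preparations. Ihh, Loxl4 and Vegfa are higher in the top band than in the lowest band of every preparation, Lect1 is lower, and Mmp13 separates the groups in the top band, at 2.7 and 4.34 in Control against 23.5 and 24.5 in Fracture.

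How common were hypertrophic chondrocytes after fracture? They made up 18.5% of chondrocyte-score cells in Control-1 (95% exact binomial interval 16.7 to 20.3), 22.8% in Control-2 (19.5 to 26.4), 49.7% in Fracture-1 (48.5 to 50.9) and 48.9% in Fracture-2 (47.7 to 50.1). Both Fracture values lay above both Control values, with means of 20.6% ± 3.07 in Control and 49.3% ± 0.607 in Fracture (SD, n = 2 each). The two-sided exact permutation test gave p = 0.333, the smallest that 2 against 2 preparations allow, so that this difference of 28.7 percentage points could not pass a threshold. Of all cells they were 2.22% ± 0.730 in Control and 27.6% ± 1.02 in Fracture, a share that also moves with the blood cells left by the depletion. The count rests on a limit of Col10a1, and other chondrocytes of Fracture had medians of 2.97 and 2.89 Col10a1 UMIs per 10,000 against 0 in Control. Ptprc-positive cells, which should lack the gene, had medians of 2.31 and 2.73 in Fracture (65 and 61 cells) against 0 in Control (1623 and 748 cells). Their highest values were 20.3 and 16.5 in Fracture and 32.4 and 15.4 in Control, above the limit of 10. Cells that reached the cartilage score had been left out of this Ptprc-positive set. With a limit of 20 per 10,000 the difference was 25.9 points.

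Cells with a transcript of selected genes were counted after each cell had been thinned at random to 2000 UMIs. Ihh was found in 33.3% and 35.9% of Control and in 46.1% and 46.1% of Fracture hypertrophic chondrocytes. Mmp13 was found in 15% and 13.0% in Control and 36.7% and 35.4% in Fracture. Ibsp, a mineral-binding sialoprotein, was found in 84.1%, 86.3%, 89.9% and 91.0% of cells. For all 3 genes the Fracture preparations lay above both Control preparations, and the exact permutation test gave its smallest p of 0.333. Without thinning the group means were 78.2% and 82.2% for Ihh, 29.4% and 62.2% for Mmp13 and 93.2% and 98.6% for Ibsp, with deeper cells in Control. Other chondrocytes were thinned alike, with shares in the order Control-1, Control-2, Fracture-1 and Fracture-2. Ihh was found in 4.86%, 5.99%, 8.79% and 7.47%, Mmp13 in 3.53%, 1.55%, 10.4% and 10.95%, and Ibsp in 18.4%, 13.3%, 46.2% and 46.03%. Both Fracture values lay above both Control values there too, so these rises were not limited to hypertrophic chondrocytes. For Ibsp the groups were further apart in other chondrocytes. As a background, cells positive for the blood gene Ptprc were counted after thinning, 1521 and 737 in Control and 65 and 61 in Fracture. Before this step the median depth of all such cells was 10109 and 12373 UMIs in Control and 9149 and 9117 in Fracture. They held Mmp13 after thinning in 3.8%, 2.6%, 12.3% and 19.7% and Ihh in 0.1%, 0.1%, 0% and 0% of cells. The Fracture shares rest on few cells. Their 95% exact binomial intervals were 5.47 to 22.8 and 10.6 to 31.8 for Mmp13 and up to 5.52 and 5.87 for Ihh. Ibsp was held by 12.4%, 6.1%, 38.5% and 37.7% of the Ptprc-positive cells, and the cartilage gene Col2a1 by 33.4%, 12.9%, 86.2% and 83.6%. Top2a or Mki67, genes of dividing cells, were found after thinning in 2.77% ± 0.675 of Control and 2.56% ± 0.0844 of Fracture cells (SD, n = 2 each), and these groups overlapped (exact permutation p = 1.0). Without thinning the shares were 16.6%, 14.8%, 9.06% and 9.56%, which did not overlap, with deeper cells in Control. In cells matched over Col10a1 bands and thinned they were 3.05%, 2.29%, 1.48% and 0% (0 of 135 cells, 95% exact binomial interval up to 2.7%), from at most 4 positive cells in a preparation. The order of the groups thus depended on depth and on the choice of cells.

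**Figure D2:**
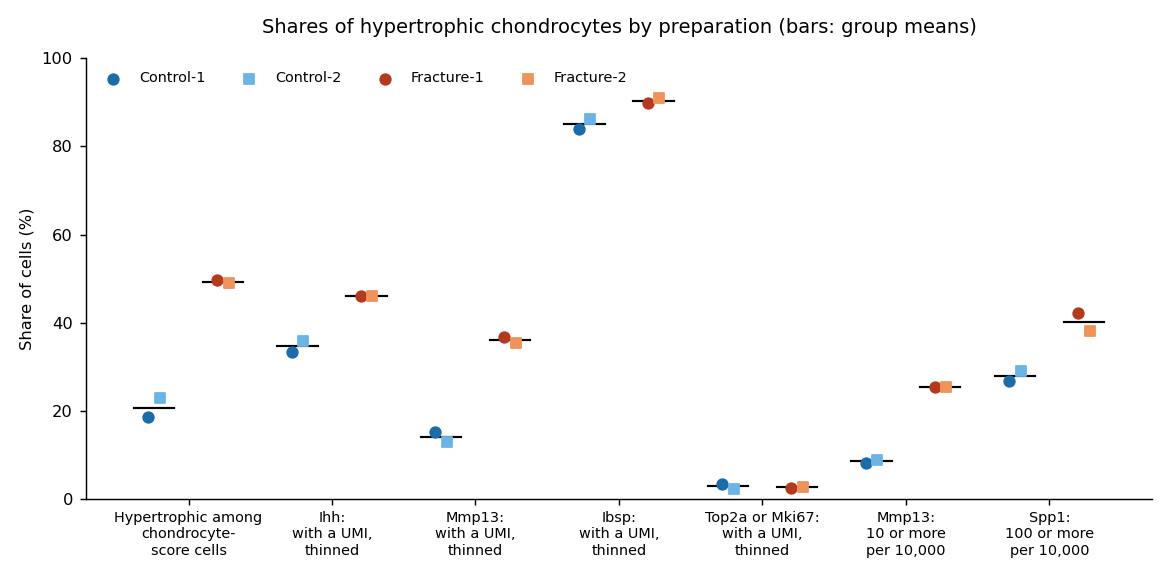
Share of cells (%) in each of the 4 preparations, with bars at the group means, for hypertrophic chondrocytes among chondrocyte-score cells, for those with a UMI of a gene after thinning to 2000 UMIs, and for those above a limit of Mmp13 or Spp1. The Fracture points sit above the Control points in every column but that of Top2a or Mki67, where they overlap.

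UMIs of these cells were summed per preparation and compared between Fracture and Control with the quasi-likelihood test of edgeR (n = 2 against 2). Adjusted p is the Benjamini-Hochberg value over 14883 genes. The paper describes chondrocytes in the callus of the fractured bone, a tissue that the unfractured Control bone lacks. A change within cells therefore cannot be told apart from a different site of the cartilage. Values in this and the following comparisons are CPM after TMM scaling, except that those of Ptprc-positive cells are plain CPM. Log2 values are of Fracture over Control with their SE. Of the genes tested, 4136 or 27.8% were called at an adjusted p under 0.05, 2114 higher (14.2%) and 2022 lower (13.6%), and the median log2 change over all genes was 0.01. Counts for each gene list below are to be read against these shares. The preparations did not overlap in 35.3% of genes upwards and 31.4% downwards. The 4 genes of the rule were left out of the test. Their levels were 30340.4, 33785, 27486 and 27395 CPM for Col10a1, 4709, 4479.9, 6298 and 6526 for Acan, 8744, 7731, 6265 and 6224 for Hapln1 and 2642, 2031, 2577 and 2551 for Matn3, in the order Control-1, Control-2, Fracture-1 and Fracture-2, which is kept throughout.

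The genes of early hypertrophy did not move as a group. Of 8 tested, 2 were higher (Ihh and Fgfr3), 1 was lower (Pla2g10) and 5 were not called, with a median log2 change of -0.04. Fgfr3 stood near the threshold and was called in 7 of 16 alternatives (0.31 ± 0.10, adjusted p = 0.0456, with log2 changes from 0.048 to 0.43 and adjusted p from 0.00307 to 0.779). Ihh (chromosome 1, 74945315 to 74951672, minus strand, mm10) was at 254, 321, 429.6 and 418 CPM, 0.57 ± 0.12 on the log2 scale (adjusted p = 0.00903). Both Fracture preparations were above both Control preparations. Its change lay between 0.43 and 0.75 over 16 alternatives, and the adjusted p between 8.84e-08 and 0.0926, since the call was lost whenever a Fracture preparation was left out. Pla2g10 (chromosome 16, 13715057 to 13730983, minus strand) was at 64.9, 66.0, 27.2 and 26.8 CPM, a change of -1.28 ± 0.08 (adjusted p = 1.5e-05). The groups were well apart and replicates nearly equal. Loxl4 (chromosome 19, 42593982 to 42612813, minus strand) was at 252, 311, 357 and 355 CPM, which did not pass the test (0.35 ± 0.11, adjusted p = 0.0524), and it passed in 8 of 16 alternatives. Without Control-2 its change was 0.51. Pth1r, the receptor that holds back hypertrophy, was at 4533, 4559.7, 3695 and 3620.1 CPM and did not pass either (-0.31 ± 0.11, adjusted p = 0.0568), although it passed in 4 of 16 alternatives.

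Around Ihh and Pth1r, 14 genes of the hedgehog and PTHrP pathway were tested, with 3 higher (Ihh, Gli2 and Cdon), 3 lower (Hhip, Disp1 and Gas1) and 8 not called (median log2 change -0.04). Disp1, which releases hedgehog ligands from the cells that make them, was at 57.7, 55.7, 30.8 and 33.9 CPM (-0.81 ± 0.09, adjusted p = 0.000367). The hedgehog co-receptor Gas1 was at 45.1, 172, 7.06 and 6.87 CPM (-3.82 ± 0.50, adjusted p = 0.000805). The Control preparations differed much for Gas1, yet both lay above Fracture. Its change was -4.59 without Control-1 and -2.69 without Control-2. Among the cells with at least 160 Col10a1 per 10,000 it was -1.14, and Gas1 was called in 14 of 16 alternatives. The pathway targets Ptch1 and Gli1 were low in these cells, at 4.13 to 10.9 and 0.688 to 2.35 CPM, and were not called.

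Late hypertrophic and mineralisation genes split, with 5 of 18 higher (Mmp13, Spp1, Dmp1, Anxa6 and Vegfa), 7 lower (Alpl, Enpp1, Slc20a1, Mepe, Mgp, Anxa2 and Anxa5) and 6 not called, at a median log2 change of -0.00. Vegfa, which draws in vessels, was at 109, 141, 206 and 210.0 CPM (0.75 ± 0.12, adjusted p = 0.00247). Dmp1, an acidic matrix protein of mineralising cells, was at 26.1, 5.16, 44.5 and 56.6 CPM (1.43 ± 0.35, adjusted p = 0.0169). Among the lower genes, Slc20a1, a phosphate transporter, was at 112, 95.6, 44.5 and 44.8 CPM (-1.23 ± 0.09, adjusted p = 4.26e-05), and Enpp1, which makes the mineralisation inhibitor pyrophosphate, at 205, 234, 138 and 141 CPM (-0.65 ± 0.09, adjusted p = 0.0015, not called in matched Col10a1 bands). Alpl was at 2382, 2261, 1734 and 1775 CPM (-0.40 ± 0.10, adjusted p = 0.0207). For all 3 the groups did not overlap. Phex was at 119, 122, 105 and 105 CPM and was not called (-0.19 ± 0.08, adjusted p = 0.107). Mgp, an inhibitor of cartilage calcification, was at 17043, 21909, 13216 and 14157 CPM (-0.51 ± 0.14, adjusted p = 0.0307). Spp1, osteopontin, was at 17438, 16395, 22462 and 21911 CPM (0.39 ± 0.11, adjusted p = 0.0342), and this call was lost in 6 of 16 alternatives, among them the replicate block and both fits without a Fracture preparation, with adjusted p from 8.56e-06 to 0.0954. The sum rested on a minority of cells, since 26.6%, 28.9%, 42.2% and 38.2% of cells, at 100 or more Spp1 UMIs per 10,000, held 97.5%, 95.2%, 92.9% and 92.7% of it. The median Spp1 level per cell was 1.63, 1.88, 62.1 and 48.9 per 10,000. After thinning Spp1 was found in 50.4%, 50.4%, 90.8% and 89.0% of cells, and in 26.8%, 14.2%, 55.4% and 39.3% of Ptprc-positive cells. Ibsp was at 13210.2, 18829, 18675 and 20189 CPM, and Control-2 overlapped with Fracture (0.28 ± 0.17, adjusted p = 0.256). Without Control-2 the change of Ibsp was 0.57.

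Mmp13, the collagenase that opens the cartilage matrix, showed the clearest rise of the late genes. It lies on chromosome 9 at 7272514 to 7283331 on the plus strand (mm10). Its level was 414, 594, 1838 and 1952 CPM, a change of 1.92 ± 0.17 (adjusted p = 9.08e-05), or 3.77-fold. Both Fracture preparations stood far above both Control preparations, and the change lay between 1.70 and 2.72 in 16 alternatives, with adjusted p from 6.2e-63 to 0.00103. The difference was also present within the top band of Col10a1, where cells with at least 160 per 10,000 held 2.7, 4.34, 23.5 and 24.5 Mmp13 UMIs per 10,000. The 1623, 748, 65 and 61 Ptprc-positive cells held 56.0, 10.1, 489 and 367 CPM. In Fracture-1 and Fracture-2, 4 and 3 of these cells, at 10 or more Mmp13 UMIs per 10,000, carried 89.4% and 82.4% of their Mmp13 UMIs. RUNX and AP-1 factors are known to bind the Mmp13 promoter. The bases before its start, and those of Col10a1 for comparison, are given from RefSeq (GRCm38.p6), with exact matches to the RUNX core TGTGGT and the AP-1 motif TGACTCA, on either strand, in capitals.
Mmp13, chr9:7272264-7272513, plus strand: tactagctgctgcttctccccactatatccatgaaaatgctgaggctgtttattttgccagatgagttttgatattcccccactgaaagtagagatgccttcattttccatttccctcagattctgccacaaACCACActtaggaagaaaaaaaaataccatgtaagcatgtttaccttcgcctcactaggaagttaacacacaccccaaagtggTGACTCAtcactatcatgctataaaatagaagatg
Col10a1, chr10:34389731-34389980, plus strand: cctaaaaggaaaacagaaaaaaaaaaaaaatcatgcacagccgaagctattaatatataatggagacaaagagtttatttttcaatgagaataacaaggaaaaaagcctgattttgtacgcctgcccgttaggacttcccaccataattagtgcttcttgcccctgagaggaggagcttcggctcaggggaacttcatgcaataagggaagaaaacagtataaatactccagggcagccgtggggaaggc
The Mmp13 window of 250 bases held 1 RUNX core, read on the opposite strand as its complement, 118 bases before the start, and 1 AP-1 motif 35 bases before it, and the Col10a1 window held neither. Of 32851 such windows 14.05% held the RUNX core and 4.463% the AP-1 motif. A match describes the letters only. Of the genes of factors that bind these motifs, Runx2 was at 203, 231, 199 and 199.5 CPM and was not called (-0.12 ± 0.09, adjusted p = 0.389), Runx1 was at 64.5, 34.4, 97.4 and 98.9 CPM (0.91 ± 0.20, adjusted p = 0.00993), Runx3 was at 105, 78.8, 60.1 and 67.6 CPM (-0.55 ± 0.13, adjusted p = 0.0136), and Fos was at 1771, 2029, 1754 and 1787 CPM and was not called (-0.10 ± 0.11, adjusted p = 0.539). Jun was at 833, 1028, 647 and 642 CPM (-0.53 ± 0.12, adjusted p = 0.0124) and Jund at 713, 1009.9, 511 and 441 CPM (-0.85 ± 0.16, adjusted p = 0.00552).

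The Mmp13 transcripts sat in a minority of cells. With a limit of 10 Mmp13 UMIs per 10,000, set after the values were seen, 28 of 349 cells (8.02%) passed in Control-1, 12 of 135 (8.89%) in Control-2, 851 of 3356 (25.4%) in Fracture-1 and 868 of 3431 (25.3%) in Fracture-2. These cells carried 92.0%, 90.9%, 96.0% and 96.6% of all Mmp13 UMIs of the hypertrophic chondrocytes. The limit was passed by 0.801%, 0.134%, 6.15% (4 of 65) and 4.92% (3 of 61) of Ptprc-positive cells. Among hypertrophic chondrocytes the share was about 3 times higher in both Fracture preparations. Cells above the limit held more osteopontin, 1008, 676, 595 and 599 Spp1 UMIs per 10,000 against 111, 132, 127 and 110.4 in the remaining hypertrophic chondrocytes. Mgp was likewise higher in them, at 984, 648, 395 and 409 against 109, 191, 62.0 and 65.0, and Vegfa at 2.62, 2.66, 3.29 and 3.45 against 0.958, 1.32, 1.78 and 1.72. Alpl went the opposite way, at 4.94, 10.3, 12.4 and 12.8 against 24.7, 23.0, 19.4 and 19.4, and so did Sox9, at 4.15, 5.19, 3.84 and 4.00 against 11.2, 8.93, 7.64 and 8.19. Ihh differed little, at 2.37, 2.78, 4.49 and 4.04 against 2.50, 3.18, 4.39 and 4.26. The direction was the same in all 4 preparations for Spp1, Mgp, Vegfa, Alpl and Sox9. Genes known from other cell types of bone moved with the split too. Mmp9 is a gelatinase of osteoclasts and other cells. The paper reports it, with Mmp13, in septoclasts, mesenchymal cells that it proposes resorb cartilage. Mmp9 was at 0.597 and 1.25 per 10,000 in the Mmp13-rich cells of Fracture against 0.0406 and 0.0265 in the rest. Either class of a Control preparation held at most 3 Mmp9 UMIs. Dmp1, also an osteocyte gene, was at 2.00, 0, 1.28 and 1.67 against 0.132, 0.0538, 0.224 and 0.25. Bglap was at 46.2, 4.08, 4.95 and 7.29 against 17.2, 11.4, 4.45 and 3.68, and Col1a1 at 64.6, 3.09, 50.5 and 42.2 against 16.4, 1.48, 64.1 and 56.8, so that both osteoblast genes differed in direction between preparations. The part of other cells or their free RNA in this split was not tested. The split rests on a transcript of the same cells and is a description with no test. Cells above the limit had fewer UMIs, with medians of 13715.5, 12173, 11278 and 12630.0 against 19362, 24646, 13788 and 15195.

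**Figure D3:**
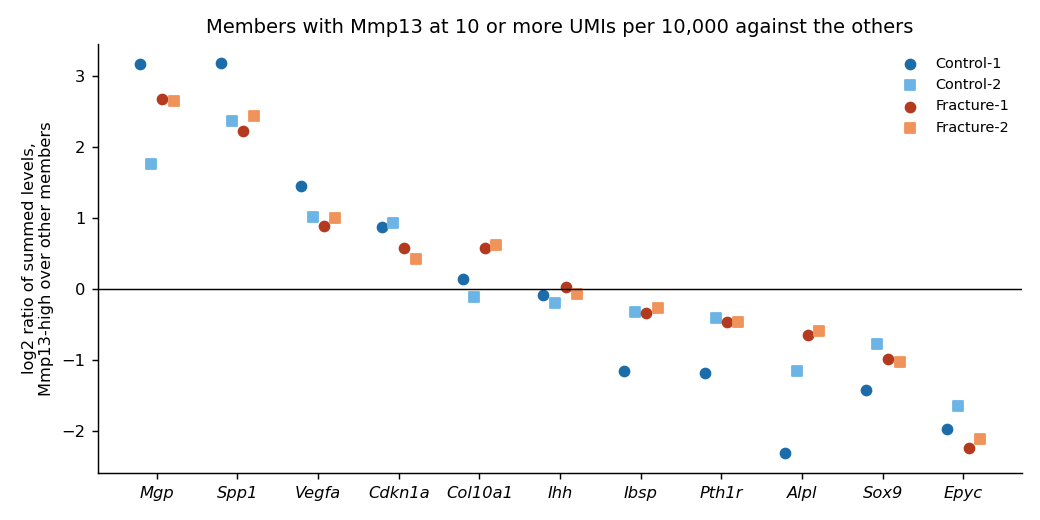
Level of selected genes in hypertrophic chondrocytes with at least 10 Mmp13 UMIs per 10,000 over that in those with fewer, as the log2 ratio of summed levels per 10,000 UMIs, with 1 point for each of the 4 preparations. Spp1, Mgp and Vegfa are higher and Alpl, Pth1r and Sox9 lower in the Mmp13-rich cells of every preparation.

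The largest rises included genes of fibrous matrix. Col3a1, a collagen of repair tissue, was at 13.4, 5.16, 1523 and 1444 CPM (7.16 ± 0.27, adjusted p = 1.37e-06), or 143-fold. Ptprc-positive cells of the Fracture preparations held Col3a1 at 969 and 770.4 CPM, and the part of free RNA was not tested. C1qtnf3, a secreted protein of cartilage (chromosome 15, 10952332 to 10980150, plus strand), was at 3.93, 1.38, 363 and 378 CPM (6.90 ± 0.21, adjusted p = 5.86e-07) against 105 and 111 CPM in Ptprc-positive cells. Postn, periostin, was at 5.03, 0, 148 and 142 CPM (5.41 ± 0.34, adjusted p = 1.56e-05), which is below the 194 and 172 CPM of the Ptprc-positive cells. The separation between groups was wide for all 3. In Fracture-1 and Fracture-2, C1qtnf3 was at 1.05 and 0.813 per 10,000 UMIs in Mmp13-rich hypertrophic chondrocytes. It was at 4.49 and 4.67 in the remaining ones. Without Control-1, whose levels were the higher of the Control pair, the changes were 8.20 for Col3a1 and 8.10 for C1qtnf3, and Postn was left without a UMI in Control. After thinning no Control cell held a C1qtnf3 UMI (0 of 339 and 0 of 131 cells, with 95% exact binomial intervals up to 1.08% and 2.78%), and no fold is given there. The 7 genes of a callus cartilage list, drawn up from earlier results of these data and therefore no independent evidence, gave 6 higher and 1 not called (median log2 change 4.71). Its member 1520401A03Rik was without a UMI in both Control preparations, at 48.5 and 50.8 CPM in Fracture and without a UMI in Ptprc-positive cells, a difference of at least 159-fold against a floor of 3 counts for the whole Control group. The median of the list is the same with this gene at its bound.

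Omd, Ptgs2 and Moxd1 rose to levels several times those of Ptprc-positive cells. Omd, osteomodulin, a keratan sulphate proteoglycan, was at 51.4, 42.7, 589 and 571 CPM (3.60 ± 0.12, adjusted p = 8.24e-07) against 61.9 and 39.1 CPM in Ptprc-positive cells of the Fracture preparations. Ptgs2, the inducible cyclooxygenase of prostaglandin synthesis, was at 19.7, 20, 223 and 222 CPM (3.49 ± 0.10, adjusted p = 5.27e-07) against 37.4 and 19.6 CPM. Moxd1, a monooxygenase-like protein, was at 8.02, 2.41, 156 and 166 CPM (4.71 ± 0.23, adjusted p = 4.35e-06) against 25.9 and 12.0 CPM. In each case both Fracture preparations agree closely and lie more than 10 times above Control. Slpi, a protease inhibitor, rose by 4.18 ± 0.15, from 14.0 and 8.94 to 218 and 224 CPM, H2-Ab1, of antigen presentation, by 3.76 ± 0.12, from 7.08 and 8.26 to 103 and 99.8 CPM, and Bicc1, an RNA-binding protein, by 3.43 ± 0.11, from 11.8 and 11.4 to 124 and 127 CPM. Ptprc-positive cells of the Fracture preparations held 80.6 and 99.3 CPM of Slpi, 48.9 and 58.7 of H2-Ab1 and 21.6 and 37.6 of Bicc1. Mt1, a metallothionein, was at 10.4, 2.06, 79.6 and 112 CPM (3.66 ± 0.34), with 223 and 298 CPM in Ptprc-positive cells of the Fracture preparations. Without Control-1 the changes were 6.09 for Moxd1 and 5.57 for Mt1. All 10 of the largest rises were called in all 16 alternatives.

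The largest falls included secreted proteins of cartilage. Cytl1, a small secreted protein of chondrocytes (chromosome 5, 37735519 to 37739820, plus strand), was at 3488, 6025, 126 and 144 CPM (-5.14 ± 0.26, adjusted p = 5.8e-06), 35.2-fold lower. The 5 Serpina1 genes, close copies that encode alpha-1-antitrypsin and can share reads, were all lower, and their plain CPM summed to 647, 1139, 23.9 and 28.2. This list was drawn up from earlier results too. Of them Serpina1b was at 256, 330.2, 7.31 and 7.40 CPM (-5.30 ± 0.14, adjusted p = 4.39e-07), and was called lower in 16 of 16 alternatives. In matched Col10a1 bands 0 and 2 Serpina1b UMIs were left in the Fracture preparations against 440 and 960 in Control. Cilp, a protein of the cartilage intermediate layer, was at 228, 369.8, 8.84 and 7.63 CPM (-5.16 ± 0.23, adjusted p = 2.7e-06). The difference between groups was many times that between replicates in each. Fxyd2, the gamma subunit of the sodium pump (chromosome 9, 45399669 to 45410278, plus strand), was at 2168, 1997, 101 and 101 CPM (-4.37 ± 0.12, adjusted p = 4.39e-07), and Nrgn, a calmodulin-binding protein, at 489, 538, 26.5 and 24.7 CPM (-4.32 ± 0.11, adjusted p = 4.39e-07). Syt8, a synaptotagmin, was at 203, 157, 20 and 20.9 CPM (-3.15 ± 0.12, adjusted p = 1.61e-06). Prg4, lubricin of the joint surface, was at 639, 1269, 22.8 and 80.2 CPM (-4.20 ± 0.56, adjusted p = 0.000935), with a wide spread within both groups, a range of -5.39 to -3.57 when 1 preparation was left out (-5.39 without Fracture-2), a value of -7.30 in matched Col10a1 bands and a call that was lost with robust estimation (adjusted p from 4.45e-246 to 0.124 over 16 alternatives). Serpina1a moved from -4.51 without Control-2 to -5.75 without Fracture-2. Apart from Gas1, Prg4 and Serpina1a, the 10 largest falls were called in all 16 alternatives.

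**Figure D4:**
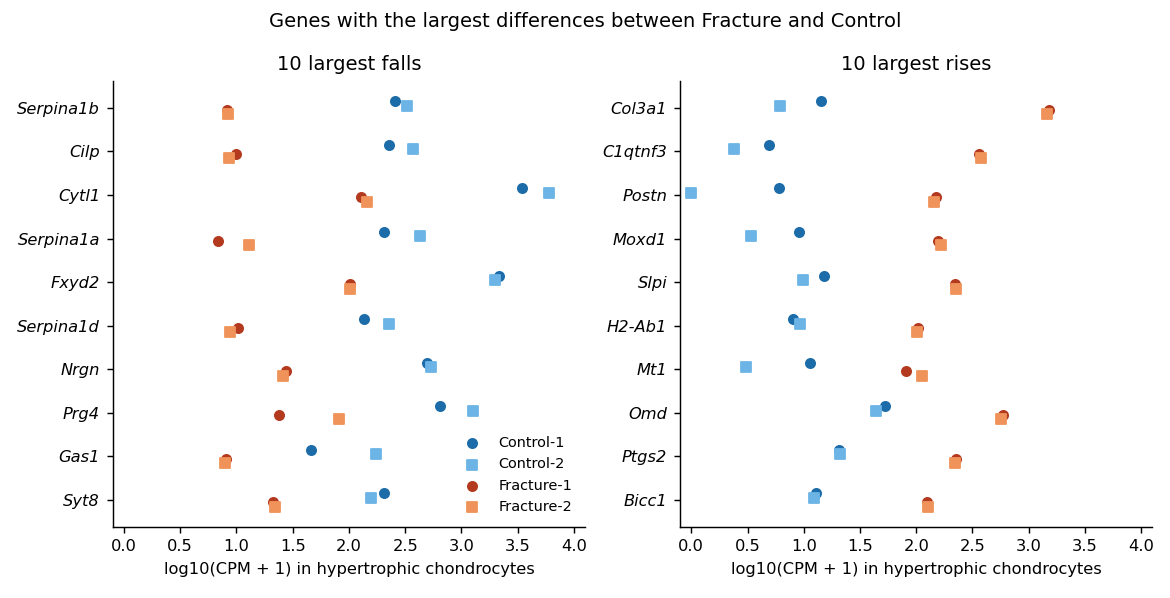
Levels as log10(CPM + 1) after TMM scaling of the 10 genes that fell most (left) and the 10 that rose most (right) in Fracture, with 1 point for each of the 4 preparations. The Fracture points lie far from the Control points in every row, and Postn, Gas1, Mt1 and Prg4 show wide spreads within a group.

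Type II collagen did not pass the test, while several other matrix genes fell. Of 7 cartilage collagens tested 1 was lower (Col11a2, not called without either Fracture preparation), none was higher and 6 were not called, and Col2a1 was at 63256, 53821, 59093 and 61491 CPM (0.04 ± 0.13, adjusted p = 0.838). Of 14 other matrix proteins 2 were higher (Matn4 and Prelp), 7 lower (Matn1, Chad, Lect1, Epyc, Cytl1, Prg4 and Chadl) and 5 not called, at a median log2 change of -0.61. Chad, chondroadherin, which ties chondrocytes to collagen, was at 7401, 8020.0, 1846 and 2046 CPM (-1.99 ± 0.12, adjusted p = 1.24e-05). Matn1, a cartilage matrilin, was at 519.5, 549, 189.5 and 171 CPM (-1.57 ± 0.10, adjusted p = 1.55e-05). Comp did not pass the test, at 13029, 10872, 13707 and 13178 CPM. Among 13 genes that build and sulphate the chondroitin chains of aggrecan 1 was higher, 5 were lower and 7 were not called. Chsy1, a chondroitin synthase, was that gene, at 26.1, 14.1, 88.7 and 92.2 CPM (2.06 ± 0.18, adjusted p = 8.51e-05, and 2.71 without Control-1).

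Matrix proteases and their inhibitors moved in both directions. Of 28 genes 14 were higher, 5 lower and 9 not called, with a median log2 change of 0.40, and the 5 lower genes were the proteases Mmp16, Adamts1, Adamts5 and Ctsb and the inhibitor Timp3, while the inhibitors Timp2 and Serpine2 were among the higher. Mmp14, a membrane protease that activates other proteases, was at 26.3, 24.4, 69.8 and 63.7 CPM (1.38 ± 0.10, adjusted p = 4.05e-05), and the lysosomal protease Ctsd at 313, 349, 783 and 761 CPM (1.22 ± 0.10, adjusted p = 6.97e-05). Timp3 was at 427, 414, 159.9 and 174 CPM (-1.34 ± 0.09, adjusted p = 2.58e-05), Timp2 was at 158, 161, 226 and 224 CPM (0.50 ± 0.08, adjusted p = 0.00328), and Timp1 was not called, at 770.1, 757, 706 and 692 CPM. None of these preparations overlapped between groups. Factors that act on osteoclasts moved in both directions, with 2 of 7 higher, 3 lower and 2 not called. Tnfrsf11b, osteoprotegerin, which blocks osteoclast formation, was at 118, 163, 15.6 and 16.6 CPM (-3.10 ± 0.14, adjusted p = 3.67e-06), Csf1, which supports it, at 10.1, 9.63, 29.1 and 30.6 CPM (1.59 ± 0.12, adjusted p = 4.28e-05), and its ligand Tnfsf11 at 26.9, 12.7, 26.6 and 27.3 CPM, which was not called.

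Of 21 transcription factors of the lineage 10 were lower, 2 higher and 9 not called (median log2 change -0.36). Foxa2, which with Foxa3 drives hypertrophy (chromosome 2, 148042877 to 148046969, minus strand), was at 115, 108, 24.4 and 24.8 CPM (-2.19 ± 0.08, adjusted p = 1.37e-06). Sox5, a partner of Sox9, was at 107, 108, 45.0 and 49.7 CPM (-1.18 ± 0.09, adjusted p = 3.71e-05), and Sox9 itself at 1094, 885, 662 and 719.6 CPM (-0.52 ± 0.12, adjusted p = 0.0154). The groups did not overlap for these 3 genes. Twist1, a factor of mesenchymal cells, was at 16.8, 10.3, 45.4 and 41.2 CPM (1.57 ± 0.16, adjusted p = 0.000222). Mef2c, which activates Col10a1, was at 957, 1094, 750.3 and 806 CPM (-0.40 ± 0.11, adjusted p = 0.0278), a call that 5 of 16 alternatives lost, among them both fits without a Fracture preparation (adjusted p from 0.00595 to 0.223).

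Signalling genes gave more rises than falls in the FGF and IGF list (9 higher, 2 lower and 9 not called of 20, median log2 change 0.36) and in the Wnt list (10 higher, 3 lower and 13 not called of 26, median 0.53). Igf1, the growth factor, was at 4.87, 3.10, 49.9 and 52.1 CPM (3.57 ± 0.16, adjusted p = 2.7e-06), with 21.6 and 21.1 CPM in Ptprc-positive cells of the Fracture preparations. Igfbp7, which binds IGF, was at 474, 463, 1896 and 1767 CPM (1.97 ± 0.10, adjusted p = 6.88e-06). Frzb, a secreted Wnt antagonist, was at 196, 209, 836 and 822 CPM (2.04 ± 0.10, adjusted p = 4.23e-06), and Sfrp5, another, at 3.62, 0.344, 34.6 and 35.2 CPM (3.76 ± 0.29, adjusted p = 4.51e-05), with 1 UMI in Control-2. The Fracture preparations were several times above Control for each. The change of Sfrp5 ran from 3.28 to 6.68 when 1 preparation was left out. The BMP and TGF-beta list was mixed, with 7 higher, 6 lower and 16 not called of 29. Its members Id3, a BMP target, and Nog, a BMP antagonist, went apart, Id3 at 205, 149, 494 and 469 CPM (1.43 ± 0.14, adjusted p = 0.000192) and Nog at 178, 111, 50.3 and 49.4 CPM (-1.57 ± 0.17, adjusted p = 0.000336). Of 17 angiogenic factors and inhibitors 7 were higher, 2 lower and 8 not called. The lower pair were Ctgf, a matricellular protein of hypertrophic cartilage, at 1697, 1682, 552 and 521 CPM (-1.65 ± 0.10, adjusted p = 1.33e-05) and the related Cyr61, at 898, 700.3, 421 and 419 CPM (-0.93 ± 0.13, adjusted p = 0.00108). Tnmd, of that list, was without a UMI in Control, and at least 29.8-fold higher in Fracture against a floor of 3 counts for the whole Control group.

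Genes of glycolysis and of the response to low oxygen were the list with the largest share of rises among those with more than 20 genes, 21 of 31 higher, 2 lower and 8 not called, at a median log2 change of 0.48. The list summed to 3135, 3192, 4612 and 4454 plain CPM in hypertrophic chondrocytes. Other chondrocytes held 4159, 5176, 7761 and 7262.5, so the higher sum in Fracture was not limited to hypertrophic chondrocytes. Pkm, the last kinase of glycolysis, was at 427, 420.0, 712 and 704 CPM (0.74 ± 0.09, adjusted p = 0.000671), Pfkfb3, which speeds up glycolysis, at 5.03, 5.85, 22.4 and 22.5 CPM (2.08 ± 0.15, adjusted p = 2.66e-05) and Slc16a3, which exports lactate, at 6.6, 9.29, 36.8 and 39.4 CPM (2.35 ± 0.15, adjusted p = 1.64e-05). Adm, adrenomedullin, a target of hypoxia factors, was at 1.42, 1.38, 26.3 and 21.7 CPM (4.09 ± 0.28, adjusted p = 2.29e-05). All 4 rises were called in 16 of 16 alternatives. Ldha was at 523, 525, 671 and 666 CPM (0.35 ± 0.09, adjusted p = 0.023) and lost its call in 6 alternatives, among them both fits without a Fracture preparation (adjusted p from 2.87e-05 to 0.565). Within the Fracture preparations its level went down along Col10a1, from 11.3 and 10.8 per 10,000 in the lowest band to 5.29 and 5.16 in the top band. The 2 genes that fell were Hk1, a hexokinase, at 62.6, 61.6, 29.9 and 29.9 CPM, and Ddit4, an inhibitor of mTOR, at 110.2, 67.4, 42.1 and 40.1 CPM.

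Heat shock genes were mostly lower, 8 of 12 against 3 higher and 1 not called, at a median log2 change of -0.47. Hspa1b was at 38.4, 58.1, 12.4 and 13.2 CPM (-1.84 ± 0.16, adjusted p = 9.92e-05), and its close copy Hspa1a, with which it can share reads, at 38.1, 48.8, 14.8 and 14.1 CPM (-1.54 ± 0.12, adjusted p = 4.71e-05). Hspb8, a small heat shock protein, rose from 3.46 and 5.50 to 23.8 and 24.8 CPM (2.56 ± 0.18, adjusted p = 2.66e-05). Heat shock and immediate early genes also respond to cell isolation, and the handling of the groups cannot be told apart from the fracture here. Immediate early genes gave 3 higher, 4 lower and 15 not called of 22, and genes of the acute phase and stress 6 higher, 4 lower and 6 not called of 16. The lower members of the latter included Sgk1, a target of glucocorticoids, with a change of -0.99 ± 0.10. Map1lc3a, of autophagy, was at 739.8, 775, 177 and 165 CPM (-2.14 ± 0.10, adjusted p = 3.38e-06) within a list of lysosome, autophagy and apoptosis genes that gave 6 higher, 3 lower and 12 not called of 21. Genes of protein folding in the endoplasmic reticulum gave 7 higher, 1 lower and 16 not called of 24, interferon and antigen presentation genes 6 higher, 1 lower and 10 not called of 17, and cell cycle genes 7 higher, 1 lower and 12 not called of 20. The 7 higher cell cycle genes were Ccnb2, Ccnd1, Ccne1, Cdk1, Cenpf and Rrm2, which act in division, and Cdkn1a, an inhibitor of it, and the lower one was Mcm6, of DNA replication. Cdkn1a was at 345, 335, 745 and 688 CPM (1.08 ± 0.10, adjusted p = 0.000115) and Ccnd1, a cyclin, at 14.2, 9.63, 21.5 and 23.8 CPM (0.84 ± 0.16, adjusted p = 0.00485, called in 13 of 16 alternatives with adjusted p up to 0.314). Rrm2, which makes nucleotides for replication, was at 2.20, 3.44, 6.27 and 6.48 CPM (1.29 ± 0.25, adjusted p = 0.00583, called in 10 of 15 alternatives with adjusted p up to 0.679) against 141 and 173 CPM in Ptprc-positive cells of the Fracture preparations.

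**Figure D5:**
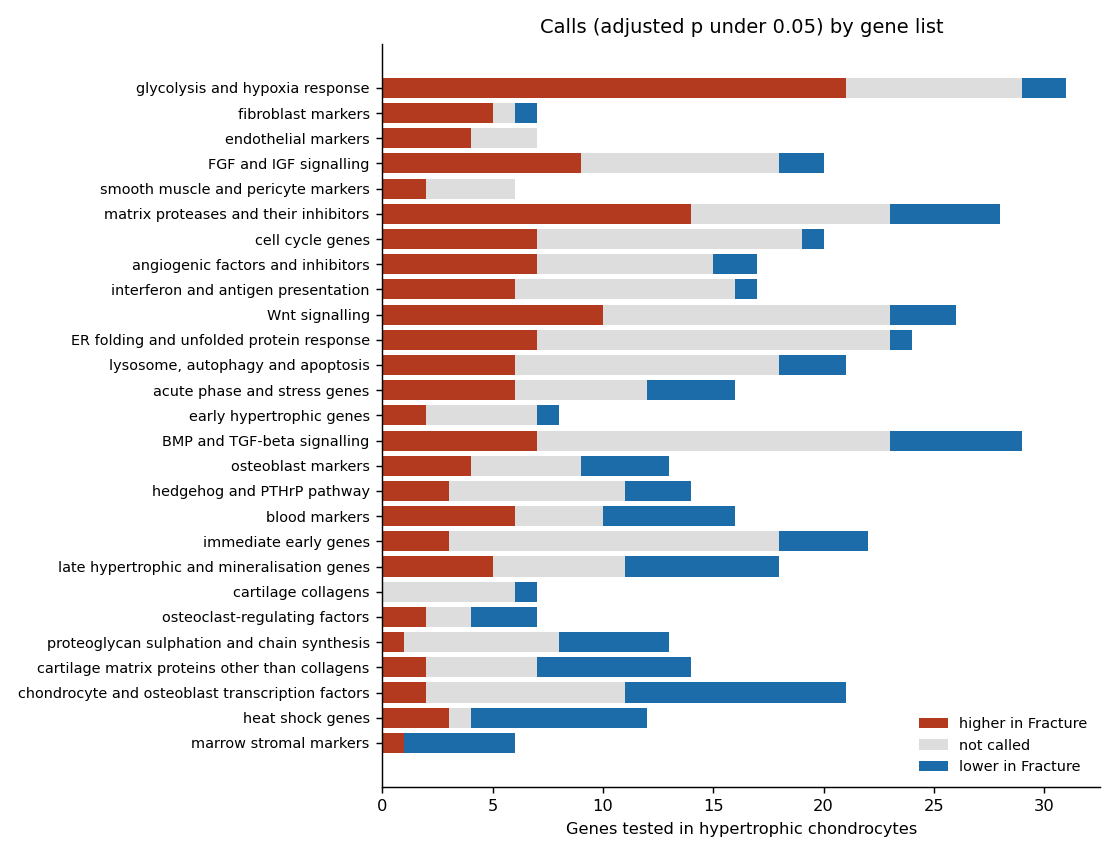
Number of genes called higher, lower or not called after fracture (edgeR, adjusted p under 0.05) in each gene list, leaving out those drawn up from earlier results, with Fracture compared with Control in hypertrophic chondrocytes. The bars of glycolysis and hypoxia response reach 21 of 31 higher and those of heat shock genes 8 of 12 lower, against 14.2% and 13.6% of all genes.

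Markers of other cell types were present in these sums, and many differed between the groups. Some also stood in lists of the chondrocyte lineage, such as Dmp1 and Sp7 of the osteoblast list. Their presence does not show which cells the transcripts came from. The 16 blood markers summed to 664, 160.4, 1142 and 1564 plain CPM, with 6 higher, 6 lower and 4 not called. Haemoglobin Hbb-bs was at 9.75, 40.6, 665 and 919.8 CPM (5.19 ± 0.47, adjusted p = 0.000112, from 4.32 without Control-1 to 6.36 without Control-2), while the basophil protease Prss34 was at 311, 18.9, 4.13 and 9.0 CPM and highest in Control-1, and Ptprc itself was at 0.233 to 2.20 CPM. Osteoblast markers summed to 45789, 42768, 47122 and 44570.1 plain CPM and gave 4 higher, 4 lower and 5 not called of 13. Among them Bglap, osteocalcin, was at 1953, 1115, 443 and 447 CPM (-1.79 ± 0.22, adjusted p = 0.000662) and Col1a2 at 2043, 316, 9028 and 9041 CPM (2.93 ± 0.66, adjusted p = 0.0121), a gene that Ptprc-positive cells of the Fracture preparations held at 7442 and 5799 CPM. Col1a1 was at 1998, 159, 5944 and 5315 CPM and was not called (adjusted p = 0.065). The Control preparations lay far apart for both type I collagen chains, the change of Col1a2 ran from 2.16 without Control-2 to 4.87 without Control-1, and its call was lost with robust estimation (adjusted p from 1.41e-134 to 0.255 over 16 alternatives). Fibroblast markers gave 5 higher, 1 lower and 1 not called of 7, with sums of 671, 1274, 271 and 344 plain CPM that Prg4 dominated in Control. Marrow stromal markers gave 1 higher and 5 lower of 6, endothelial markers 4 higher and 3 not called of 7 at sums of 31.2 to 72.8 plain CPM, and smooth muscle markers 2 higher and 4 not called of 6 at sums of 5.09 to 68.3. Several of these calls were lost in some alternatives, since Emcn passed in 11 of 16, Egfl7 in 10 of 16, Cdh5 in 15 of 16, Rgs5 in 12 of 15 and Mcam in 10 of 15. Hbb-bs and the marrow stromal markers Cxcl12 and Adipoq each passed in 15 of 16. The part of these cells, or of their free RNA, in the changes above was not tested.

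Whether the change from Control to Fracture differed between hypertrophic and other chondrocytes was tested in 1 edgeR fit over both classes, with the preparation as a block. Of 16882 genes 1588 or 9.41% gave a different effect at an adjusted p under 0.05, with the log2 effect higher in hypertrophic chondrocytes in 633 (3.75%) and lower in 955 (5.66%). The values in this comparison are CPM scaled over both classes. C1qtnf3 was at 4.1, 1.4, 396 and 409 CPM in hypertrophic and at 134, 132, 1540.4 and 1580.3 CPM in other chondrocytes, a difference of log2 effects of 3.42 ± 0.22 (adjusted p = 1.23e-07), which was 4.56 without Control-1 and 3.08 without Control-2. On the log2 scale its rise was therefore larger in the hypertrophic cells, which started from Control levels of 4.1 and 1.4 CPM. In CPM the gain was larger in other chondrocytes, and the level remained higher there. Hypertrophic chondrocytes of the lowest Col10a1 band, next to the limit, held 9.26 and 8.90 C1qtnf3 UMIs per 10,000 in Fracture-1 and Fracture-2. Matn1 was at 542, 561, 207 and 185 CPM in hypertrophic and at 55.4, 65.8, 101 and 101 CPM in other chondrocytes, so that its directions were opposite (-2.25 ± 0.10, adjusted p = 4.93e-09). Fxyd2 fell from 2264 and 2039 to 109.7 and 109 CPM against a fall from 1859 and 2167 to 586 and 536 CPM in other chondrocytes (-2.46 ± 0.12, adjusted p = 8.3e-09). Cilp, at 238, 378, 9.65 and 8.26 against 150.0, 134, 48.9 and 51.8 CPM, differed by -3.54 ± 0.19 (adjusted p = 1.97e-08), and Serpina1b, at 267, 337, 7.98 and 8.01 against 366, 585, 106 and 99.2 CPM, by -3.06 ± 0.12 (adjusted p = 1.13e-09). On the log2 scale both fell further in the hypertrophic cells. Ptgs2 was the reverse case, at 20.5, 20.4, 244 and 240.1 CPM in hypertrophic and at 1.49, 0.430, 67.5 and 72.9 CPM in other chondrocytes (-2.33 ± 0.26, adjusted p = 2.67e-05), where the smaller fold stood at the higher level. Its difference was -3.81 without Control-1, -1.99 without Control-2, -3.37 without the scrublet calls and -3.68 without the highest scrublet scores. Over the 10 alternatives Cilp ranged from -4.81 (other chondrocytes without a Col10a1 UMI) to -3.15 and Serpina1b from -3.88 (Col10a1 limit of 20) to -2.91. These 6 genes were called in all 10 alternatives of this comparison. The remaining 4 of the largest differences were haemoglobin genes, which were no longer called once the cells with the highest doublet scores were removed (0.67 to 0.73). Against other chondrocytes without a Col10a1 UMI they were not called either, with adjusted p of 0.0661 to 0.224 and differences of 3.13 to 4.15, and without Control-1 Hba-a2 (adjusted p = 0.128) and Hbb-bt (adjusted p = 0.0531) lost the call.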

How the data were processed

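Single-cell RNA sequencing libraries of bone stromal cells (Chromium 3 prime kit, NextSeq500) were deposited by the authors as raw UMI counts per gene and barcode, with no normalisation. The submitters' processing notes name bcl2fastq 2.19.1.403, UMI-tools 1.0.0, STAR 2.7.3a, featureCounts 1.6.4 and mm10, while the published methods name STARsolo, and the route taken is not settled. Cells of 500 to 6000 genes with at most 25% mitochondrial UMIs were kept, as in the published methods. The members and gene lists were chosen with earlier results of these data known. Counts were summed per preparation (8 libraries, 4 preparations) and tested with edgeR 4.0.16 (TMM, its filter on low counts, quasi-likelihood, Benjamini-Hochberg at 0.05) on R 4.3.3 with limma 3.58.1, after a test on simulated data. DESeq2 1.42.0 was an alternative. Named genes were the 10 largest rises and 10 largest falls among called genes whose preparations did not overlap, at a mean of at least 50 CPM and outside the rule and blood lists, from each list the 2 most abundant and up to 3 called members with the smallest adjusted p, the markers, and the 5 highest and 5 lowest class-by-group terms. Other genes in the text (Jun, Jund, Runx1, Runx2, Runx3, Vegfa, Dmp1, Alpl, Mgp, Ptch1, Gli1, Nog, Sox9, Hk1, Ddit4, Tnfsf11, Col1a1, Prss34, Ptprc, Phex, Mmp9, Mmp16, Adamts1, Adamts5, Ctsb, Timp2, Serpine2, Mcm6, the cell cycle genes Ccnb2, Ccne1, Cdk1 and Cenpf, and further called list members such as Gli2, Hhip and Matn4) were named after their values were seen, and their alternatives were not computed. Coordinates are from GENCODE M21 (mm10), which held 129 of 131 named genes. Doublets were scored with scrublet in scanpy 1.11.5 (6% expected) and kept. Its threshold called 211 and 1 cells in the 2 libraries of Fracture-1 and 5 and 198 in those of Fracture-2. Removing these calls therefore left 1 library of each Fracture preparation nearly unchanged. Shares were compared by exact permutation with scipy 1.17.1 (Python 3.11.15, pandas 2.3.3, matplotlib 3.10.9, numpy 2.4.6), and intervals are 95% Clopper-Pearson, covering counting error only. Depth was 56543151 to 89126291 UMIs per library. Alternatives were other size factors, no filter, a replicate block, leaving out each preparation, removing doublets, at least 3000 UMIs, other Col10a1 limits, matched Col10a1 bands and thinned cells. Ranges of adjusted p and counts of calls include the fits with 1 preparation left out, whose p-values do not measure the spread within the reduced group. The same replicate number was not shown to pair preparations, since deviations of same-numbered preparations correlated at 0.0886 over 4958 genes.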

Additional observations from a re-analysis of the deposited data

Results flagged for a closer look

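The log2 effect, Fracture over Control, of 10 genes differed between hypertrophic and other chondrocytes by the class-by-group test of edgeR. They were taken from the 5 highest and 5 lowest differences of log2 effects at a mean of at least 50 CPM. The effect was higher in hypertrophic chondrocytes for Hba-a2 (3.63), C1qtnf3 (3.42), Hbb-bs (3.20), Hbb-bt (2.84) and Hba-a1 (2.80). It was lower for Cilp (-3.54), Serpina1b (-3.06), Fxyd2 (-2.46), Ptgs2 (-2.33) and Matn1 (-2.25). The 4 haemoglobin genes were at 0.67 to 0.73 once the 6% of cells with the highest scrublet scores were removed, and none of them was called then, nor against other chondrocytes without a Col10a1 UMI. Without Control-1 the call was lost for Hba-a2 (adjusted p = 0.128) and Hbb-bt (adjusted p = 0.0531). In Ptprc-positive cells Hbb-bs stood at 244 and 688 CPM in Control and 2002 and 3872 CPM in Fracture, and the part of free RNA was not tested.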

How the results depend on the processing

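The counts of called genes differed between settings, and the parts of cell number and depth were not tested apart. Against 2114 higher and 2022 lower genes, 732 and 722 were called in cells matched over Col10a1 bands and 607 and 586 in cells thinned to 2000 UMIs, both with fewer cells or UMIs and fewer genes tested. Leaving out 1 preparation gave 734 to 2188 higher and 582 to 2065 lower genes, with 734 and 582 without Fracture-1, 793 and 675 without Fracture-2, 1739 and 1206 without Control-1 and 2188 and 2065 without Control-2. The replicate block gave 1699 and 1554, DESeq2 1485 and 1469, and no filter 3059 and 2142, of which 58.8% were higher against 51.1%, with 59.0% without Control-1. At most 1 gene was called in the opposite direction in any setting. Against 1588 genes whose effect differed between classes, DESeq2 called 788 in all, the comparison with other chondrocytes without a Col10a1 UMI 396 (of fewer genes tested), and the fits that left out 1 preparation 833 to 2351 (833 without Fracture-1, 909 without Fracture-2, 2351 without Control-2), and these counts say nothing of shared genes. The difference in the share of cells with Top2a or Mki67 was -0.204 percentage points and reversed to 0.241 without the 6% highest scrublet scores, 0.329 at a Col10a1 limit of 20 and 0.318 at 160, ran from -0.681 to 0.273 when 1 preparation was left out, and was -1.93 in matched bands and -6.41 without thinning. Genes that were not called changed sign as follows. At a Col10a1 limit of 160 the log2 changes were -0.17 for Id1, -0.0624 for Col11a1, -0.0258 for Junb, 0.18 for Timp1 and -0.0381 for Chst11, and at 20 -0.00629 for Id1. Matched bands gave -0.15 for Id1 and -0.0147 for Junb, thinned cells -0.13 for Id1 and -0.12 for H2-K1, and cells without the highest scrublet scores -0.0075 for Col2a1 and 0.0634 for Timp1. When 1 preparation was left out the change ran from -0.14 to 0.38 for Id1, from -0.074 to 0.47 for Fgfr1, from -0.058 to 0.20 for Col2a1, from -0.070 to 0.26 for Col11a1, from -0.17 to 0.011 for Fos, from -0.043 to 0.27 for Junb and from -0.044 to 0.36 for H2-K1, with the extremes in the fits without Control-1 or Control-2. The cause of these moves was not tested. The replicate block lost 2 calls and gained 1 among 127 named genes, and the same numbers were not shown to pair the preparations. The limit at 160, robust estimation and the removal of the highest scrublet scores were added after the data were seen. With 2 preparations a group and 349 and 135 Control cells, genes near the threshold rest on 1 preparation. The permutation test could not detect a difference of shares of any size.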
